A study of Mus musculus with 18 samples.

Results

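The RNA levels of caveola coat proteins and of the membrane-bending proteins that work beside them were followed through fat cell formation in culture. The genes were the caveolins Cav1 and Cav2, the cavins Cavin1 (also called Ptrf) and Cavin2 (also called Sdpr), the ATPases Ehd1, Ehd2, Ehd3 and Ehd4, and the F-BAR proteins Pacsin2 and Pacsin3. These 10 genes were chosen by name out of 25209 listed genes, and 9 of them, all except Pacsin3, had 1 TPM, the deposited abundance scaled to gene length and library total, or more in 3 or more of 18 libraries, and so entered the tests of 12695 genes. Polyadenylated RNA came from 3T3-L1, a clonal mouse preadipocyte line, with 3 libraries each in Control, MCE1, MCE2, Day4, Day6 and Day8. For the induction, cultures 2 days past confluence were given 10 µg/mL insulin, 0.25 µM dexamethasone and 0.5 mM IBMX over 48 h, followed by 5 µg/mL insulin alone, renewed every 2 days. Control is labelled only as Control, MCE1 and MCE2 are stages of mitotic clonal expansion, the divisions that induced cells pass through, with no hour given, and Day4, Day6 and Day8 are days after the differentiation stimuli. Control and all induced groups are the same line in culture, so they hold none of the other cells of fat tissue, and the labels do not say whether the 3 libraries of a group are separate cultures, so a p-value here reflects the spread between libraries, which may be technical.

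Caveolae are small flask-shaped pits of the plasma membrane that are especially dense in fat cells, where they carry insulin receptors and take part in fatty acid uptake. Caveolins sit in the membrane and oligomerize into the coat, cavins bind the coat from the cytoplasm, and outside muscle caveolae do not form without CAV1 or CAVIN1. EHD2 sits at the neck of the pit and holds it at the cell surface, whereas EHD1, EHD3 and EHD4 act mainly on recycling endosomes, and PACSIN proteins bend membrane and bind EHD proteins.

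Promoter windows, 250 bases before to 50 after an annotated start, were matched by symbol in RefSeq sequence of the GRCm38.p6 build for 9 of the 10 members, 14 windows in all, and not for Ehd1. Cav1 has 2 windows, of which the first is shown, and the second, at chr6:17307390-17307689, holds 16 CpG dinucleotides and 0 matches to the motifs below. The windows of Cav1 and Cav2 are shown because both genes lie on chromosome 6 with 17204 bases between the end of Cav2 and the start of Cav1, in the mm9 build of the deposited tables, and yet followed unlike courses. The window of Cavin2 is shown because its RNA varied most among the members, and that of Ehd2 because it was the main EHD message and its share grew. Sequences run 5′ to 3′ on the gene's strand, with matches to the searched motifs in capitals. Cav1 is at chr6:17306085-17306384 (plus strand), Cav2 at chr6:17280935-17281234 (plus), Cavin2 at chr1:51288876-51289175 (plus) and Ehd2 at chr7:15967486-15967785 (minus).
Cav1: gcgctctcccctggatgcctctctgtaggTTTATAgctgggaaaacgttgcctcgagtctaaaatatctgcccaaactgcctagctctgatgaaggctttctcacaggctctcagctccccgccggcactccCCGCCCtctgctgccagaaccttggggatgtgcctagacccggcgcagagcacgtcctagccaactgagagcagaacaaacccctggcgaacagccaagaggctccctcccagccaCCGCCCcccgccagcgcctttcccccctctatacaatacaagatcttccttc
Cav2: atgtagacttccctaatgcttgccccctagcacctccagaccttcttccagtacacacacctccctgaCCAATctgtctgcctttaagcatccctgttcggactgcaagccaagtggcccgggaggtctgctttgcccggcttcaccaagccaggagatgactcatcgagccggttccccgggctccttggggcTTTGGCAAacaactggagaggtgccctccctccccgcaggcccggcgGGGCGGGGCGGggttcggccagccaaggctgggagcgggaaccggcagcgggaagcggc
Cavin2: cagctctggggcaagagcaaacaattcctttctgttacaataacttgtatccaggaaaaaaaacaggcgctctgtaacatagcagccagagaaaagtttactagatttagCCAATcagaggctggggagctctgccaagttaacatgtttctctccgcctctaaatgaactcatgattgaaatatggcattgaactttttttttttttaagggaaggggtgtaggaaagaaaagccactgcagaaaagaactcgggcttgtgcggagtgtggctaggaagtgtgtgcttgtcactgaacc
Ehd2: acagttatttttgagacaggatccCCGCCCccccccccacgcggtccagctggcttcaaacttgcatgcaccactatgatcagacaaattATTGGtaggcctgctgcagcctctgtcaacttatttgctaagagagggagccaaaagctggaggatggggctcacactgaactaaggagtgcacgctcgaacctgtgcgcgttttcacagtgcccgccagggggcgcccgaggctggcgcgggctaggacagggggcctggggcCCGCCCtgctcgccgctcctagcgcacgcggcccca
The motifs searched on both strands were the GC box GGGCGG, the TATA box TATAAA, the CCAAT box CCAAT, the C/EBP half-site pair TTGCNNAA, the sterol element TCACNCCAC, the DR1 direct repeat bound by PPARG with RXR, the palindromic glucocorticoid element and the E-box CACGTG.

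The printed Cav1 window held 2 GC boxes and 1 TATA box, that of Cav2 held 2 adjoining GC boxes, 1 CCAAT box and 1 C/EBP pair, that of Cavin2 held 1 CCAAT box alone, and that of Ehd2 held 2 GC boxes and 1 CCAAT box. The TATA match of Cav1 is on the opposite strand, near the upstream end of the window and far from the annotated start. A GC box was in 10 of the 14 member windows, from 8 members, and in 35.7% of all 32851 windows. A CCAAT box was in 9 of 14, from 7 members, and in 37.4%. Some members have more than 1 window, and those of Cavin1 overlap almost wholly and each hold both boxes, so these windows are not independent. The TATA box and the C/EBP pair were each in 1 of 14, against 13.6% and 10.8% of all windows. The sterol element, the direct repeat, the glucocorticoid element and the E-box had 0 matches in the member windows and were in 1.24%, 0.0396%, 0.00913% and 7.15% of all windows. CpG dinucleotides numbered 13 in the printed window of Cav1, 16 in Cav2, 18 in Ehd2 and 4 in Cavin2, against a median of 7. These matches describe letters in a window and were not tested as binding sites.

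The labelled cells were first checked against marker genes. The summed TPM of 8 adipocyte markers had medians of 161 in Control, 689 in MCE1, 3568 in MCE2, 18198 in Day4, 30600.0 in Day6 and 26823 in Day8, and Adipoq, Plin1 and Lep were listed at 0 in all Control libraries. Most of this sum was Fabp4 and Lpl, and the markers did not all rise together. Pparg had 33.0, 29.5 and 32.1 TPM in Control, 31.4, 49.2 and 174 TPM in Day6 and 35.4, 184 and 45.2 TPM in Day8. Every Day8 library was below every Day6 library for Fabp4 and Cidec, and above for Adipoq, Plin1 and Lep. The summed TPM of 9 preadipocyte and fibroblast markers, mostly that of Vim, Col1a1 and Col1a2, was lower in both expansion stages. Its medians were 9319 in Control, 5563 in MCE1, 5125 in MCE2, 7658 in Day4, 7287 in Day6 and 8750.0 in Day8. Its range was 5450 to 5795 in MCE1 and 4957 to 5256 in MCE2, against 9277 to 9684 in Control. The members described below as lower than Control there are Cav1, Ehd1, Ehd4 and Pacsin2 (both stages), Cavin1 and Cavin2 (MCE1) and Cav2 (MCE2). Endothelial markers, of a cell type rich in caveolae, summed to at most 1.72 TPM with 0 of 7 passing the filter, and macrophage markers to at most 7.74 TPM with Adgre1 and Ptprc at 0 throughout. Smooth and skeletal muscle markers had median sums of 44.0 TPM in Day8 and 11.6 TPM in Control, with Myod1, Myog, Ckm and Myh4 at 0 throughout. Most of the Day8 sum was Des, at 44.7, 37.1 and 39.9 TPM against 2.82, 2.65 and 3.82 TPM in Control. Acta1 went the other way, at 1.08, 0 and 1.77 TPM in Day8 against 9.71, 7.58 and 7.49 TPM in Control. Epithelial markers summed to 9.29 to 12.4 TPM in Day8 and to at most 0.169 TPM in Control, with Epcam, Krt8 and Krt18 at 0 in Control. The part of these markers' changes in the results was not tested. In this bulk RNA, fewer cells of a type and less RNA per cell cannot be told apart. TPM keeps no read depth, so the depth of the libraries is unknown. The table of Control replicate 1 listed 12 genes at another locus, 0 of them members, and that library enters every comparison with Control. Changes below are log2 fold changes of TPM + 1 ± SE from limma, a gene is called at a Benjamini-Hochberg adjusted p under 0.05 over all tested genes, and the 5 comparisons with Control share its libraries. The median log2 change over all tested genes was -0.06 in MCE1, -0.17 in MCE2, -0.11 in Day4, -0.12 in Day6 and -0.11 in Day8, each against Control, and median-ratio scaling of the libraries moved it to between 0 and 0.03. Of the 8 tested preadipocyte and fibroblast markers, 5 were called lower and 2 higher in MCE1 against Control (29.4% and 22% of all tested genes). In MCE2 against Control 5 were called lower and 1 higher (39.1% and 23.4%). Pdgfra rose by 1.31 ± 0.18 in MCE1 and by 1.46 ± 0.18 in MCE2, and Ly6a by 0.84 ± 0.27 in MCE1.

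All 9 tested members varied over the stages in the F test, where 87.6% of all tested genes were called. The ratio of the highest to the lowest group mean was 28.6 for Cavin2, 5.03 for Ehd3, 4.17 for Cav2, 2.92 for Ehd2, 2.67 for Ehd4, 2.28 for Ehd1, 2.05 for Cav1, 1.74 for Pacsin2 and 1.60 for Cavin1. The members did not share a course, since the highest mean fell in Control for Ehd1, Ehd4 and Pacsin2, in MCE2 for Ehd2 and Ehd3, in Day6 for Cav1, Cavin1 and Cavin2, and in Day8 for Cav2.

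**Figure D1:**
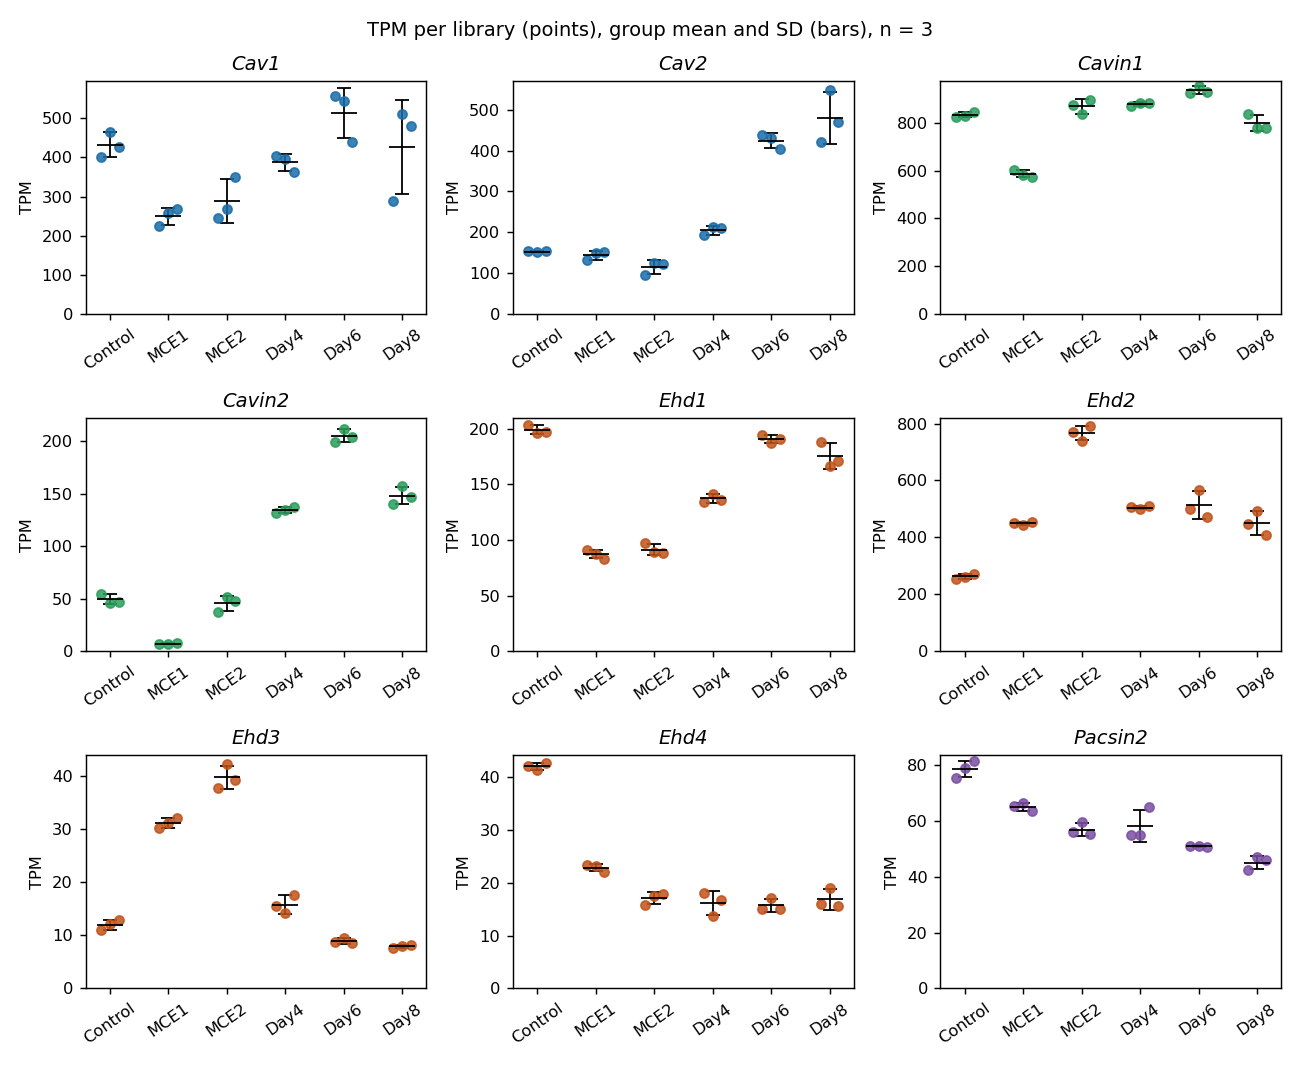
TPM (y axis, from 0) of each tested member in every library (points) at the 6 stages (x axis), with bars for the group mean and SD (n = 3). Cavin2 dips to 7.18 TPM in MCE1 and peaks at 205 TPM in Day6, Ehd2 and Ehd3 peak in MCE2, and Ehd4 is highest in Control.

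Cav1, the caveolin that caveolae outside muscle cannot form without, was lower during clonal expansion and ended near its Control level (chr6:17256335-17291328, mm9). It had 402, 466 and 427 TPM in Control, 225, 257 and 267 TPM in MCE1 and 245, 268 and 351 TPM in MCE2. Later it had 404, 396 and 363 TPM in Day4, 557, 543 and 439 TPM in Day6 and 288, 511 and 480.1 TPM in Day8. Every MCE1 and MCE2 library was below every Control library, and Day8 overlapped Control, with Day8 replicate 1 far below the other two. Cav1 fell by 0.79 ± 0.18 in MCE1 (adjusted p = 0.0016) and by 0.60 ± 0.18 in MCE2 (adjusted p = 0.0085), each against Control, and the MCE2 call was lost under median-ratio scaling at -0.40 with an adjusted p of 0.061. Day8 differed from Control by -0.06 ± 0.18 (adjusted p = 0.78), by 0.20 without Day8 replicate 1 (adjusted p = 0.20) and by 0.07 under median-ratio scaling. Day4 was called higher than MCE2 by 0.44 ± 0.18 at an adjusted p of 0.0497, a call that was lost under both other scalings and when any 1 of 13 of the 18 libraries was left out, with adjusted p-values up to 0.18. The change of 0.40 ± 0.18 in Day6 against Day4 was not called (adjusted p = 0.12) and was called without Day8 replicate 1 (adjusted p = 0.023), a library outside that pair that enters the shared spread, and when only the 6 libraries compared were fitted (adjusted p = 0.030).

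Cav2, which joins Cav1 in mixed oligomers and needs it to leave the Golgi, rose late and kept its high level to the end (chr6:17231185-17239130). It had 154, 151 and 154 TPM in Control, 131, 149 and 151 TPM in MCE1 and 96.2, 126 and 123 TPM in MCE2. It had 192, 212 and 211 TPM in Day4, 438, 431 and 404 TPM in Day6 and 421, 547 and 469 TPM in Day8. Control, Day4 and Day6 did not overlap one another, whereas Day6 and Day8 did. Cav2 was higher than Control by 0.42 ± 0.10 in Day4 (adjusted p = 0.0015), by 1.47 ± 0.10 in Day6 (adjusted p = 1.8e-09) and by 1.63 ± 0.10 in Day8 (adjusted p = 3.9e-10). Its fall of 0.42 ± 0.10 in MCE2 against Control was called (adjusted p = 0.0017), and its difference of -0.09 ± 0.10 in MCE1 was not (adjusted p = 0.47) and was 0.03 under median-ratio scaling. Against MCE1, Cav2 fell by 0.32 ± 0.10 in MCE2 (adjusted p = 0.015), a call lost under quantile normalization (adjusted p = 0.060) and without MCE1 replicate 2, MCE1 replicate 3 or MCE2 replicate 1 (adjusted p from 0.054 to 0.092), and when only the 6 libraries compared were fitted (adjusted p = 0.054). The steps with the clearest rise were Day4 against MCE2, at 0.84 ± 0.10, and Day6 against Day4, at 1.05 ± 0.10, while Day8 against Day6 gave 0.17 ± 0.10 (adjusted p = 0.26).

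As Cav2 ended above its Control level and Cav1 did not, the make-up of the caveolin message in Day8 differed from that in Control. Cav1 held 40.6%, 48.3% and 50.6% of the summed Cav1 and Cav2 TPM in the Day8 libraries, and 72.3%, 75.5% and 73.5% in the Control libraries. The mean shares were 73.8% ± 1.64 in Control, 63.5% ± 0.421 in MCE1, 71.3% ± 2.99 in MCE2, 65.4% ± 2.29 in Day4, 54.6% ± 2.15 in Day6 and 46.5% ± 5.23 in Day8 (SD, n = 3). Every Day8 library was below every Control library, by -27.3 percentage points on average, and the exact 2-sided permutation test gave p = 0.1, the smallest that 3 against 3 libraries allow. The mean ratio of Cav1 to Cav2 was 0.879 ± 0.176 in Day8 and 2.82 ± 0.243 in Control. A share within a library does not depend on the scaling between libraries.

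Cavin1, the cavin that caveolae require, had the highest level of all members and the narrowest range (chr11:100818051-100831931). It had 827, 829 and 846 TPM in Control, 605, 584 and 574 TPM in MCE1 and 876, 836 and 895 TPM in MCE2. It had 869, 885 and 884 TPM in Day4, 926, 956 and 930.3 TPM in Day6 and 839, 779 and 779 TPM in Day8. MCE1 stood below every other library, and the remaining groups lay close together. Cavin1 fell by 0.50 ± 0.04 in MCE1 against Control (adjusted p = 1.5e-08) and rose by 0.56 ± 0.04 in MCE2 against MCE1 (adjusted p = 8.4e-09). Its call in Day6 against Control, 0.17 ± 0.04 (adjusted p = 0.00097), was lost under quantile normalization at -0.02. Its direction against Control also depended on the scaling elsewhere, at 0.06 in MCE2 (0.26 with median-ratio scaling and called, -0.13 with quantile normalization and called), at 0.08 in Day4 (0.22 and called, -0.10) and at -0.06 in Day8 (0.07, -0.20 and called). Without Day8 replicate 1, Day4 at 0.08 (adjusted p = 0.0497) and Day8 at -0.10 (adjusted p = 0.028) were also called, as was Day4 when only the 6 libraries compared were fitted (adjusted p = 0.044). Cavin1 fell by 0.23 ± 0.04 in Day8 against Day6 (adjusted p = 0.00052), a call lost when only those 6 libraries were fitted (adjusted p = 0.054).

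Cavin2, which binds phosphatidylserine and helps shape caveolae, fell sharply at MCE1, recovered at MCE2 and then rose past its Control level (chr1:51345970-51359804). It had 54.8, 46.0 and 47.3 TPM in Control, 7.14, 6.68 and 7.73 TPM in MCE1 and 37.4, 51.5 and 48.0 TPM in MCE2. It had 132, 135 and 137 TPM in Day4, 199, 212 and 205 TPM in Day6 and 141, 157 and 147 TPM in Day8. MCE1 was far below all other groups, Control and MCE2 overlapped, and Day4, Day8 and Day6 followed above them without overlap. Cavin2 fell by 2.62 ± 0.10 in MCE1 against Control (adjusted p = 3.0e-12) and rose by 2.50 ± 0.10 in MCE2 against MCE1 (adjusted p = 1.7e-11). Against Control it was higher by 1.43 ± 0.10 in Day4 (adjusted p = 1.7e-09), by 2.04 ± 0.10 in Day6 (adjusted p = 1.8e-11) and by 1.57 ± 0.10 in Day8 (adjusted p = 4.1e-10). Its MCE2 level differed from Control by -0.12 ± 0.10 (adjusted p = 0.30), and by 0.08 under median-ratio scaling, 0.03 under quantile normalization and 0.02 without MCE2 replicate 1. After its peak it fell by 0.47 ± 0.10 in Day8 against Day6 (adjusted p = 0.0028). The gene overlaps 9330175M20Rik, which was listed at 0 in all 18 libraries.

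Within the cavin family, Cavin2 held 4.53% ± 0.452 of the summed TPM of Cavin1 to Cavin4 in Control, 0.887% ± 0.0828 in MCE1, 4.21% ± 0.750 in MCE2, 10.1% ± 0.101 in Day4, 13.9% ± 0.262 in Day6 and 12.2% ± 1.05 in Day8 (SD, n = 3). Cavin3 (also called Prkcdbp), a cavin outside the 10 members, had 289, 256 and 276 TPM in Day8 against 202, 210.5 and 203 TPM in Control, higher in Day8 by 0.41 ± 0.06 (adjusted p = 5.8e-06). Cavin4 (also called Murc), the muscle cavin, reached at most 0.949 TPM, and the muscle caveolin Cav3 and the neuronal Pacsin1 were listed at 0 in every library.

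**Figure D2:**
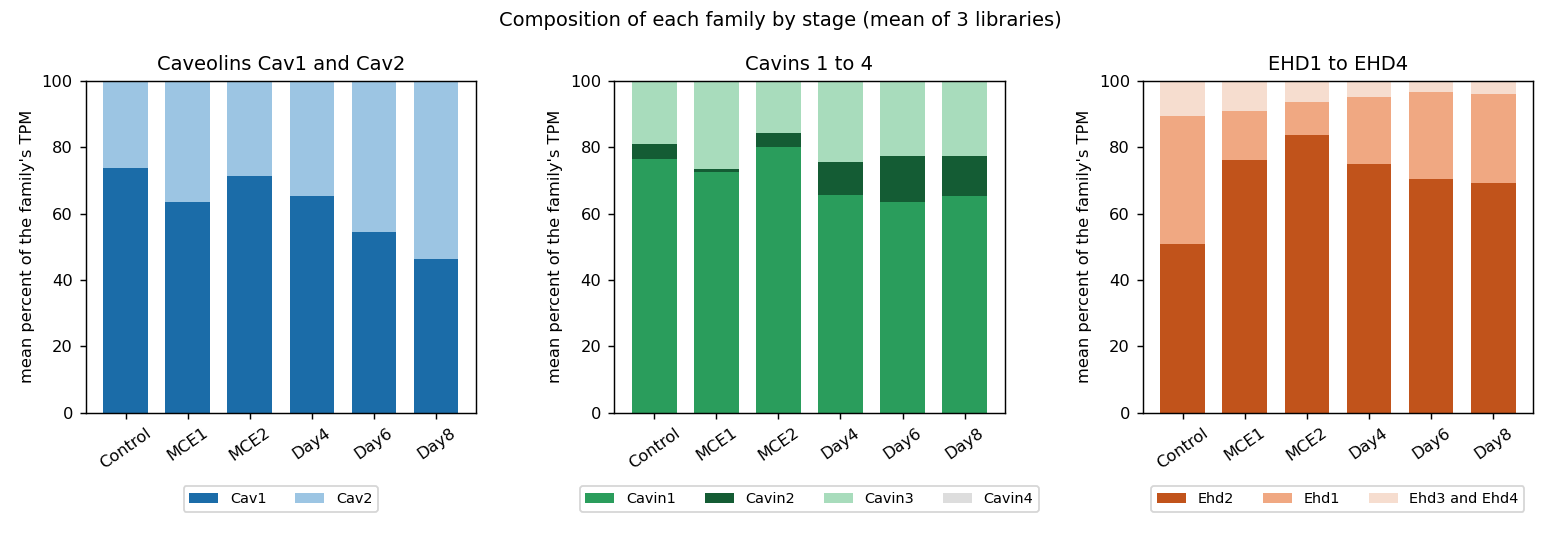
Mean percent of the summed TPM of each family (y axis) held by each gene at the 6 stages (x axis), for the caveolins, cavins and EHD genes. Cav1 holds 46.5% of caveolin TPM in Day8 and 73.8% in Control, Cavin2 holds 13.9% of cavin TPM in Day6, and Ehd2 holds 83.8% of EHD TPM in MCE2.

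Ehd2, the EHD protein of the caveola neck, rose from the first induced stage and stayed above Control throughout (chr7:16534336-16552884). It had 254, 262 and 271 TPM in Control, 449, 444 and 454 TPM in MCE1 and 769.7, 739 and 789.9 TPM in MCE2. It had 505, 498 and 509.7 TPM in Day4, 500.3, 567 and 471 TPM in Day6 and 446, 493 and 409 TPM in Day8. Every induced library was above every Control library, and MCE2 was above all other groups. Against Control, Ehd2 was higher by 0.77 ± 0.07 in MCE1 (adjusted p = 6.8e-08), 1.54 ± 0.07 in MCE2 (adjusted p = 8.8e-12), 0.94 ± 0.07 in Day4 (adjusted p = 3.1e-09), 0.96 ± 0.07 in Day6 (adjusted p = 2.1e-09) and 0.77 ± 0.07 in Day8 (adjusted p = 2.9e-08). It fell by 0.60 ± 0.07 in Day4 against MCE2 (adjusted p = 1.6e-06). The last step, Day8 against Day6, gave -0.19 ± 0.07 (adjusted p = 0.053), and was called under both other scalings and without Day6 replicate 3 (adjusted p = 0.022) or Day8 replicate 2 (adjusted p = 0.010).

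Ehd1, which drives the return of receptors from recycling endosomes to the surface, took the opposite course during clonal expansion (chr19:6276896-6300096). It had 204, 197 and 197 TPM in Control, 90.8, 87.6 and 83.3 TPM in MCE1 and 97.1, 88.8 and 87.9 TPM in MCE2. It had 134, 142 and 136 TPM in Day4, 194, 187 and 191 TPM in Day6 and 189, 167 and 171 TPM in Day8. Both expansion stages lay below all other groups and overlapped each other. The mean then rose to 137 TPM in Day4 and to 191 TPM in Day6, just under the 199 TPM of Control, and was 175 TPM in Day8. Ehd1 fell by 1.18 ± 0.05 in MCE1 (adjusted p = 2.8e-11), by 1.12 ± 0.05 in MCE2 (adjusted p = 3.1e-11) and by 0.53 ± 0.05 in Day4 (adjusted p = 2.1e-07), each against Control. It rose by 0.59 ± 0.05 in Day4 against MCE2 (adjusted p = 1.9e-07) and by 0.47 ± 0.05 in Day6 against Day4 (adjusted p = 8.6e-06). Its fall of 0.18 ± 0.05 in Day8 against Control (adjusted p = 0.0056) was lost under median-ratio scaling at -0.06, and Day6 against Control gave -0.06 (adjusted p = 0.31), 0.09 with median-ratio scaling and -0.13 with quantile normalization, the last of which was called. Day8 against Day6 gave -0.12 ± 0.05 (adjusted p = 0.12), and -0.18 without Day8 replicate 1, which was called (adjusted p = 0.028).

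Ehd3, the close relative of Ehd1 on recycling endosomes, was a minor message that peaked in clonal expansion (chr17:74154181-74181433). It had 10.9, 12.1 and 12.8 TPM in Control, 30.2, 31.2 and 32.1 TPM in MCE1 and 37.8, 42.3 and 39.4 TPM in MCE2. It had 15.6, 14.1 and 17.6 TPM in Day4, 8.84, 9.54 and 8.50 TPM in Day6 and 7.67, 7.96 and 8.12 TPM in Day8. No pair of neighbours in the order of group means overlapped. Ehd3 was higher than Control by 1.31 ± 0.09 in MCE1 (adjusted p = 2.5e-09), 1.66 ± 0.09 in MCE2 (adjusted p = 9.1e-11) and 0.37 ± 0.09 in Day4 (adjusted p = 0.0012). Against Control it was lower by -0.38 ± 0.09 in Day6 (adjusted p = 0.0010) and -0.54 ± 0.09 in Day8 (adjusted p = 3.8e-05).

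Ehd4, an endosomal EHD protein, fell at once and stayed low (chr2:119915223-119980311). It had 42.1, 41.4 and 42.7 TPM in Control, 23.3, 23.3 and 22.1 TPM in MCE1 and 15.8, 17.5 and 17.9 TPM in MCE2. From Day4 to Day8 all 9 libraries lay between 13.7 and 19.1 TPM. Control was above every induced library, and MCE2, Day4, Day6 and Day8 overlapped. Against Control the change was -0.85 ± 0.10 in MCE1 (adjusted p = 2.5e-06), -1.25 ± 0.10 in MCE2 (adjusted p = 1.7e-08), -1.34 ± 0.10 in Day4 (adjusted p = 6.0e-09), -1.37 ± 0.10 in Day6 (adjusted p = 4.1e-09) and -1.28 ± 0.10 in Day8 (adjusted p = 8.5e-09). After MCE2 no step was called.

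The EHD message thus shifted towards Ehd2. Ehd2 held 67.8%, 71.8% and 67.8% of the summed EHD TPM in the Day8 libraries, and 49.7%, 51.2% and 51.8% in the Control libraries. Its mean share was 50.9% ± 1.05 in Control, 76.1% ± 0.598 in MCE1, 83.8% ± 0.621 in MCE2, 74.9% ± 0.230 in Day4, 70.3% ± 2.02 in Day6 and 69.1% ± 2.32 in Day8 (SD, n = 3). Every Day8 library was above every Control library, by 18.2 percentage points on average, with p = 0.1 in the exact 2-sided permutation test, the smallest that 3 against 3 libraries allow. Ehd1 held 38.6% ± 1.14 of the EHD TPM in Control, 14.8% ± 0.633 in MCE1, 9.98% ± 0.574 in MCE2, 20.4% ± 0.719 in Day4, 26.3% ± 2.03 in Day6 and 27.1% ± 2.43 in Day8. The summed EHD TPM was 516 ± 7.38 in Control, 914 ± 24.3 in MCE2 and 649.6 ± 42.3 in Day8.

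Pacsin2, which bends membrane at the caveola neck and on recycling tubules, declined over the stages (chr15:83206037-83295036). It had 75.6, 79.0 and 81.5 TPM in Control, 65.3, 66.4 and 63.5 TPM in MCE1 and 55.9, 59.6 and 55.3 TPM in MCE2. It had 54.9, 55.0 and 64.9 TPM in Day4, 51.2, 51.2 and 50.8 TPM in Day6 and 42.3, 47.0 and 46.0 TPM in Day8. Every induced library was below every Control library, and Day8 was the lowest group. Against Control the change was -0.27 ± 0.06 in MCE1 (adjusted p = 0.0023), -0.46 ± 0.06 in MCE2 (adjusted p = 1.2e-05), -0.43 ± 0.06 in Day4 (adjusted p = 1.9e-05), -0.61 ± 0.06 in Day6 (adjusted p = 3.5e-07) and -0.79 ± 0.06 in Day8 (adjusted p = 1.5e-08). Of the single steps, MCE2 against MCE1 at -0.19 (adjusted p = 0.025) was lost under both other scalings and without MCE1 replicate 1, MCE1 replicate 2, MCE2 replicate 1 or MCE2 replicate 3 (adjusted p from 0.063 to 0.084). Day6 against Day4 at -0.18 (adjusted p = 0.0497) was lost without any 1 of 14 of the 18 libraries, with an adjusted p up to 0.23, and with a pseudocount of 0.1 (adjusted p = 0.051). Day8 against Day6, at -0.18 (adjusted p = 0.062), was called under both other scalings and without Day4 replicate 3 (adjusted p = 0.025). Pacsin3 (chr2:91096322-91104837), known from skeletal muscle and heart, was listed at 0.129 TPM in MCE2 replicate 1 and at 0 in the other 17 libraries.

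**Figure D3:**
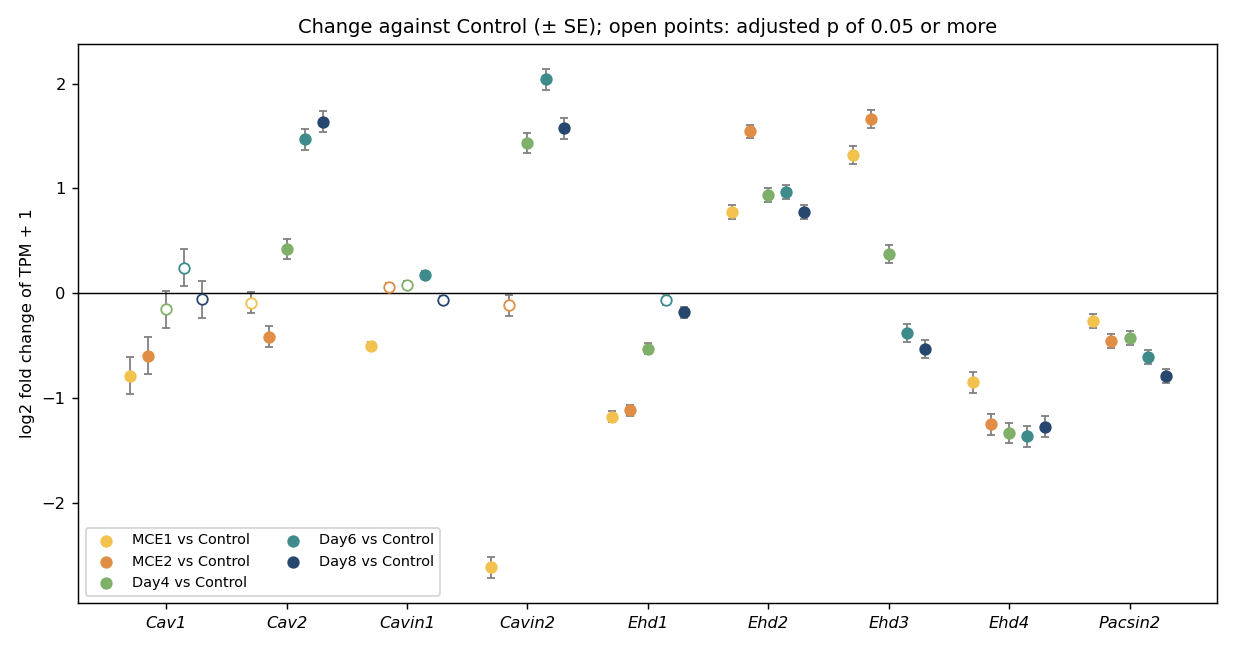
Log2 fold change of TPM + 1 ± SE (y axis) of each tested member (x axis) in the 5 induced groups against Control, with open points where the adjusted p was 0.05 or more. Ehd2 lies above 0 and Ehd4 and Pacsin2 below 0 in all 5 groups, while Cavin2 lies at -2.62 in MCE1 and at 2.04 in Day6.

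Counted by comparison, 8 of the 9 tested members were called in MCE1 against Control, where 51.4% of all tested genes were called. Of these 2 were higher, against 22% of all genes, and 6 lower, against 29.4%. In MCE2 against Control 7 were called, where 62.5% of all genes were, 2 higher (23.4% of all genes) and 5 lower (39.1%), and the members' split was 3 higher and 4 lower under median-ratio scaling. That scaling also moved the share of higher among all called genes to 54.3%, against 42.9% as reported, in MCE1 and to 50.1%, against 37.4%, in MCE2, and quantile normalization moved the MCE2 share to 49.4%. Day4 against Control had 7 calls, where 69% of all genes were called, 4 higher (29.7%) and 3 lower (39.3%). Day6 against Control also had 7, where 69.7% of all genes were called, 4 higher (30.2%) and 3 lower (39.4%), and 3 higher and 4 lower under quantile normalization. Day8 against Control had 7, where 71.4% of all genes were called, 3 higher (31.7%) and 4 lower (39.7%). In the MCE2, Day4, Day6 and Day8 comparisons with Control the called share of members is near that of all genes, so the number called is not a result about the members.

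For the steps between neighbouring stages the count is likewise read against the share of all genes. MCE2 against MCE1 had 7 calls, where 42.8% of all genes were called, 4 higher (17.7%) and 3 lower (25.2%), and 4 higher and 1 lower under quantile normalization. Day4 against MCE2 had 6 calls, where 51.6% of all genes were called, 4 higher (29.6%) and 2 lower (22%). The higher ones were Cav1, Cav2, Cavin2 and Ehd1, and the lower ones Ehd2 and Ehd3. Day6 against Day4 had 5, where 25.7% of all genes were called, 3 higher (14.5%), namely Cav2, Cavin2 and Ehd1, and 2 lower (11.2%), namely Ehd3 and Pacsin2. Day8 against Day6 had 2, the cavins, both lower (11.6%), where 21.7% of all genes were called, and 4, all lower, under either other scaling, with Ehd2 and Pacsin2 added, and 1 when only those 6 libraries were fitted. In Day4 against MCE2 and Day8 against Day6 the called share of members is near that of all genes and is not a result about them. It was higher in MCE1 against Control, MCE2 against MCE1 and Day6 against Day4, which was not tested. The members were chosen with earlier results of these data known, so these counts are a description only.

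The genes whose course was most like each member's are given as a description, by Pearson's r of log2(TPM + 1) over the 18 libraries, which share 6 groups, among tested genes with a mean of at least 10 TPM. For Cav1 they were Mrpl23 (r = 0.933), Cyp2c55 (r = 0.879) and Egr1 (r = 0.877), the lowest values among the members. Cav2 was most like Gbe1 (r = 0.981), Cs (r = 0.981) and Rab5a (r = 0.977). Cavin1 was most like Cxcl12 (r = 0.949), Mapk8ip1 (r = 0.929) and Inka1 (r = 0.926). Cavin2 was most like Snhg18 (r = 0.987), Sardh (r = 0.977) and Slc38a6 (r = 0.969). Each of these was again a gene outside the 10 members. Ehd1 was most like Calcrl (r = 0.972), Thbs2 (r = 0.967) and Fdft1 (r = 0.964). Ehd2 was most like Plxnd1 (r = 0.982), Angptl4 (r = 0.982) and Tbc1d4 (r = 0.981). Ehd3 was most like Lxn (r = 0.987), Atf6b (r = 0.986) and St3gal1 (r = 0.986). For Ehd4 and Pacsin2 the values were again high. Ehd4 was most like Tiam2 (r = 0.990), Myo1e (r = 0.989) and Iqgap1 (r = 0.989), and Pacsin2 was most like Exoc4 (r = 0.967), Jam3 (r = 0.964) and Igf2bp3 (r = 0.961).

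Among the members themselves, measured the same way, Cavin1 and Cavin2 had r = 0.853, Ehd4 and Pacsin2 had r = 0.840, and Cav1 and Ehd1 had r = 0.795. The neighbours Cav1 and Cav2 had r = 0.668. Opposed courses were seen for Ehd1 and Ehd3 (r = -0.938), for Cav2 and Ehd3 (r = -0.841) and for Ehd2 and Ehd4 (r = -0.784). The caveola proteins Cav1 and Ehd2 had r = -0.302.

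Genes that work with caveolae and EHD proteins were set beside the members in Day8 against Control, where 71.4% of all tested genes were called, 31.7% higher and 39.7% lower. Of 11 genes for scission and anchoring of caveolae, 1 was higher and 6 were lower, with a median log2 change of -0.61 against -0.11 for all tested genes. Flna, the actin crosslinker filamin A that ties CAV1 to stress fibres, had 121, 119 and 99.2 TPM in Day8 against 934, 924 and 977 TPM in Control, a change of -3.06 ± 0.11 (adjusted p = 7.6e-13). Dnm1, the scission GTPase dynamin 1, had 61.3, 54.8 and 57.9 TPM in Day8 against 124, 171 and 195 TPM in Control, a change of -1.45 ± 0.17 (adjusted p = 1.4e-06).

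Of 17 EHD partners and recycling endosome genes, 3 were higher and 7 lower, with a median of -0.06, and 7 were not called. The called share is near the 71.4% of all tested genes and is not a result about this list. Tfrc, the transferrin receptor that recycles through EHD1 endosomes, changed by -1.11 ± 0.13, the small GTPase Rab8b by -0.83 ± 0.12 and the SNARE Snap29 by -0.60 ± 0.11. Those that rose were Micall1, which brings EHD1 to tubules, at 0.48 ± 0.10, Ehbp1l1 at 0.32 ± 0.11 and Rab4a at 0.24 ± 0.08. The Ehbp1l1 call was lost without Control replicate 1 (0.24), Day8 replicate 1 (0.27) or Day8 replicate 2 (0.27), and the Rab4a call without Day8 replicate 1 (0.17) or when only the 6 libraries were fitted (adjusted p = 0.060).

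Of cargo and receptors linked to caveolae in fat cells, all 7 listed were called in Day8 against Control, 5 higher and 2 lower, where 71.4% of all tested genes were called. Slc2a4, the insulin-responsive glucose transporter GLUT4, had 160.5, 170.3 and 164 TPM in Day8 and was listed at 0 in Control, and Slc27a1, a fatty acid transporter, had 14.2, 13.0 and 8.04 TPM in Day8 and was also listed at 0 in Control. The other 5 had a median change of 1.27. Cd36, the fatty acid translocase, had 317, 362 and 279 TPM in Day8 against 1.74, 1.65 and 1.87 TPM in Control, a change of 6.85 ± 0.11 (adjusted p = 7.7e-17). Aoc3, a surface amine oxidase of fat cells, changed by 5.55 ± 0.10 and the insulin receptor Insr by 1.27 ± 0.22, whereas the IGF1 receptor Igf1r changed by -1.44 ± 0.13 and the scavenger receptor Lrp1 by -0.60 ± 0.16.

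The flotillins, which form other membrane microdomains, and stomatin split. Stom had 136, 133 and 124 TPM in Day8 against 24.4, 25.7 and 24.1 TPM in Control, a change of 2.36 ± 0.05 (adjusted p = 1.3e-15). Flot1 rose by 0.50 ± 0.06 and Flot2 changed by -0.26 ± 0.06, a call lost under median-ratio scaling at -0.13. Of 20 clathrin coat genes, the other main route into the cell, 17 passed the filter, of which 2 were higher and 11 lower with a median of -0.29, a called share near the 71.4% of all tested genes. The lowest were the membrane-curving Bin1 at -0.95 ± 0.07, the coat adaptor Epn1 at -0.93 ± 0.20 and the AP-2 subunit Ap2b1 at -0.92 ± 0.12. Picalm at 0.40 ± 0.14 and Ap2s1 at 0.20 ± 0.08 were called higher, Picalm not without Control replicate 2 (0.36) or Day8 replicate 3 (0.35), and Ap2s1 not without any 1 of 4 libraries, Control replicates 1 and 3 and Day8 replicates 1 and 3 (0.12 to 0.20), nor under quantile normalization (0.11). Clta, the clathrin light chain that cells use widely, was listed at 0 in 3 single libraries, one of them Control replicate 1, so a listed 0 in these tables can be a failed estimate.

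**Figure D4:**
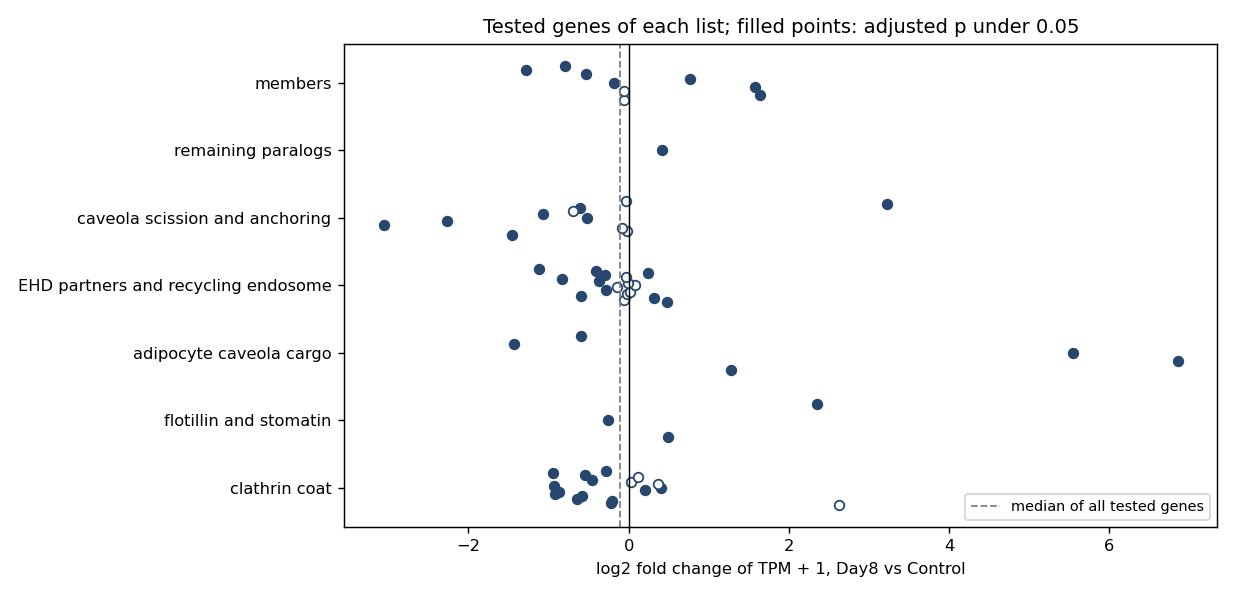
Log2 fold change of TPM + 1 in Day8 against Control (x axis) of the tested genes of each list (rows), with filled points where the adjusted p was under 0.05 and a dashed line at the median of all tested genes, -0.11. Genes listed at 0 in Control (Slc2a4 and Slc27a1) are not drawn. The members lie between -1.28 and 1.63, inside the range of the caveola cargo genes, where Cd36 reaches 6.85.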

How the data were processed

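The authors deposited 1 table of TPM per gene for each of the 18 libraries with gene positions. Per the submitters' processing notes, FastQC, cutadapt, HISAT2 and StringTie were used, with no version given, on the mm9 build, and the annotation and the use of strand in counting are not given in the sources used here. The deposited TPM of a library summed to 869497 to 880273 over the listed genes, and read depth is unknown, so precision rests on 3 libraries per group. Groups were taken from the sample titles. After leaving out 12 genes listed at another locus in Control replicate 1, a gene was tested if 3 or more libraries had 1 TPM or more. limma 3.58.1 in R 4.3.3 was fitted to log2(TPM + 1) over all 18 libraries (1 mean per group, eBayes with trend and robust, residual degrees of freedom 12, median prior 3.18), with Benjamini-Hochberg adjustment over the 12695 tested genes of each of 9 comparisons. The fit was tested on simulated data. Shares were compared by an exact permutation test. Alternatives were another pseudocount, filter, scaling or set of libraries, a replicate block and leaving out single libraries. Tables and figures were made with Python 3.11.15, pandas 2.3.3, numpy 2.4.6 and matplotlib 3.10.9.

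The members, lists, motifs and tests were chosen with earlier results of these data known. Every member is named, with its paralogs, all markers used and, of each other list, up to 3 called genes with the highest and up to 3 with the lowest change in Day8 against Control, and the 3 genes most like each member (predicted and unnamed gene models left out). Some genes that this rule would name are not reported here. In the reference transcripts, 4 of the 50-base stretches of Ehd3 and 7 of those of Pacsin2 also occur in other genes, and 0 of those of the other 8 members.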

Additional observations from a re-analysis of the deposited data

How the results depend on the processing

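The number of members called stayed within 1.5 times its reported value under every alternative in 8 of the 9 comparisons and in the F test. In Day8 against Day6 it was 2 as reported, 4 under median-ratio scaling, 4 under quantile normalization and 1 when only the 6 libraries compared were fitted. Leaving out single libraries gave 8 members in MCE1 against Control, 7 in MCE2, 7 to 8 in Day4, 7 in Day6 and 7 to 8 in Day8, each against Control, and 5 to 7 in MCE2 against MCE1, 5 to 6 in Day4 against MCE2, 4 to 6 in Day6 against Day4 and 2 to 3 in Day8 against Day6, with 9 in the F test. The difference in the Ehd2 share ranged from 16.9 to 18.9 percentage points and that in the Cav1 share from -29.4 to -24.4. Of 2025 recomputed member changes, 1938 kept their direction and their side of the threshold and 20 turned direction. Of those that kept their direction, 49 lost a call and 18 gained one. Among the turned changes, Cavin1 under quantile normalization also lost its call in Day6 and gained one in MCE2, each against Control. The turned values lay between -0.13 and 0.20. Under median-ratio scaling they were 0.026 for Cav2 in MCE1, 0.078 for Cavin2 in MCE2, 0.086 for Ehd1 in Day6, 0.068 for Cav1 and 0.067 for Cavin1 in Day8, each against Control, and -0.039 for Cavin1 and -0.027 for Pacsin2 in Day4 against MCE2. Under quantile normalization they were 0.033 for Cavin2 and -0.13 for Cavin1 in MCE2, -0.097 for Cavin1 in Day4 and -0.015 for Cavin1 in Day6, each against Control. Leaving out single libraries gave -0.21 to 0.20 for Cav1 in Day8 and -0.21 to 0.015 for Cavin2 in MCE2, each against Control. It gave -0.010 to 0.039 for Cavin1, -0.16 to 0.027 for Ehd4 and -0.050 to 0.069 for Pacsin2 in Day4 against MCE2, and -0.14 to 0.047 for Ehd4 and -0.054 to 0.079 for Ehd2 in Day6 against Day4. The cause of these changes was not tested. With a replicate block, 4 members instead of 5 were called in Day6 against Day4, the call of Pacsin2 being lost (-0.18, adjusted p = 0.051), and the other 9 counts were as reported. The labels give replicates only a number. Deviations of same-numbered libraries from their group means correlated at -0.0742 to 0.0927 over 45 pairs, and 8 of 18 libraries correlated best with their own number. Such a correlation over all tested genes cannot show whether same-numbered libraries shared a culture or batch that changed few genes. Of 625 recomputed changes of the other named genes, 14 lost a call. Where 1 library was left out, its group's other 2 remained in the fit. Without read counts, depth cannot be set beside these values, and levels of a few TPM, such as those of Ehd3 in Day8, rest on unknown numbers of reads.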
